A study of Homo sapiens with 6 samples.

Results

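The genes described here are 39 actin and contractile genes that belong to, or act with, the SRF-MRTF transcription pathway, out of 15585 genes with reads in the libraries. They are a list of named genes, drawn up with earlier results of these data known, and they cover SRF and its coactivators, actins, transgelins, calponins and caldesmon, myosin II, tropomyosins, cross-linkers and adhesion proteins, LIM domain proteins and proteins of filament turnover. The gene table listed 37 of them under the symbol used here and 2 under a newer symbol, since MKL1 is now named MRTFA and MKL2 is now named MRTFB. RNA sequencing was performed on U2OS cells, a human osteosarcoma line that grows attached and forms prominent stress fibres. Cells received control siRNA (siCTR, 3 libraries) or siRNA against LSD1 (siLSD1, 3 libraries) for 48 h, and they carried no other modification that the labels name. LSD1, encoded by KDM1A, is a histone demethylase that removes methyl groups from lysine 4 of histone H3. The sources used here do not say which LSD1 siRNA was used for these libraries or whether replicates came from separate cultures, so p-values measure the spread between these libraries, which may be technical.

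SRF is a transcription factor that binds a short A/T-rich element known as the CArG box in the promoters of many cytoskeletal genes. Its coactivators of the MRTF family bind monomeric actin and are held inactive by it, so that filament assembly, which uses up actin monomers, releases them to the nucleus. The genes switched on in this way encode actin itself and the proteins that bundle, anchor and contract actin filaments, and the pathway is best known from smooth muscle, fibroblasts and spreading cells.

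Each library held between 12513511 and 13561344 counted reads. KDM1A was reduced in every siLSD1 library, with 6140, 6493 and 6573 reads under siCTR against 1110, 1198 and 1246 reads under siLSD1 (values here and below run from replicate 1 to replicate 3). This was 18.5% of the control level (log2 fold change -2.44, SE 0.11, Benjamini-Hochberg adjusted p = 2.27e-07 over 11844 tested genes, quasi-likelihood test of edgeR). One library stood apart in a way that touches the actin genes. In siCTR replicate 2, long genes were low and short genes were high relative to the other siCTR libraries. Of mesenchymal markers, VIM was abundant and CDH2 was present, whereas SPARC and RUNX2 had at most 4 reads in any library. Of 5 epithelial markers, 4 were in the table, and their summed level was 7.21 to 9.70 CPM (read counts scaled to library size) in siCTR and 12.68 to 13.64 CPM in siLSD1, most of it from CDH1. Of 3 endothelial markers, 2 were in the table, with a summed level of 0.311 to 1.04 CPM in siCTR and 1.28 to 2.22 CPM in siLSD1. Most of it came from CDH5, with 8, 4 and 11 reads in siCTR and 28, 16 and 27 reads in siLSD1. PECAM1 had 0 to 3 reads per library, and the leukocyte marker PTPRC had 1 read in total. The part of these low-level differences in the results below was not tested. Since the libraries are of bulk RNA, fewer cells expressing a gene and less of its RNA per cell cannot be told apart.

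Of the 39 genes, 34 had enough reads to be tested. Knockdown of LSD1 was accompanied by a 2.25-fold higher level of TPM4, the gene of a short cytoplasmic tropomyosin, and by no other change in the set that passed an adjusted p of 0.05. MYH9, FHL2 and TLN1 were higher in all 3 siLSD1 libraries by a factor of 1.27 to 1.33 at an unadjusted p under 0.05 only. In an edgeR fit with a block for the replicate number, their adjusted p was 0.00771, 0.0281 and 0.033. That fit called 7.57% of all tested genes at an adjusted p under 0.05. SRF, its coactivators and the abundant actins ACTB and ACTG1 did not pass the test. Thus 4 of 34 tested genes (11.8%) were higher at an unadjusted p under 0.05, beside 7.48% of all tested genes, and 0 were lower, beside 6.55%. At an adjusted p under 0.05, 1 gene was higher and 0 were lower, beside 1.07% and 0.371% of all tested genes. DESeq2 and limma-voom also called 0 of the genes lower, at an unadjusted or an adjusted p. The 3 siLSD1 libraries lay above all siCTR libraries for 5 genes, beside 11.4% of all tested genes, and below them for 2, beside 9.97%. The median log2 fold change of the 34 genes was 0.12, and 23 of them (67.6%) had a positive value, beside a median of -0.014 and 47.3% positive over all tested genes. Without TPM4 the median was 0.12. The median fell to 0.062 without siLSD1 replicate 1 and to 0.070 without siCTR replicate 1. Without siCTR replicate 2 it was 0.11, 3 genes were higher at an unadjusted p under 0.05 and 0 were lower, beside 7% and 5.69% of all genes tested in that fit. The count of higher genes was 8 without siCTR replicate 1, when MYL12B was also lower, and 9 without siLSD1 replicate 3, beside 7.72% and 7.71% of all genes tested in those fits. The siLSD1 libraries then lay above siCTR for 9 and 11 genes of the set, but with 1 library fewer groups separate more often, and the shares over all tested genes were 15.6% and 17.3%. After a correction for the trend of each library on GC content and gene length, 13 genes were higher and 0 lower, beside 12.4% and 11.9% of all genes tested in that fit, and MYH9 passed an adjusted p of 0.05 in edgeR beside TPM4.

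**Figure D1:**
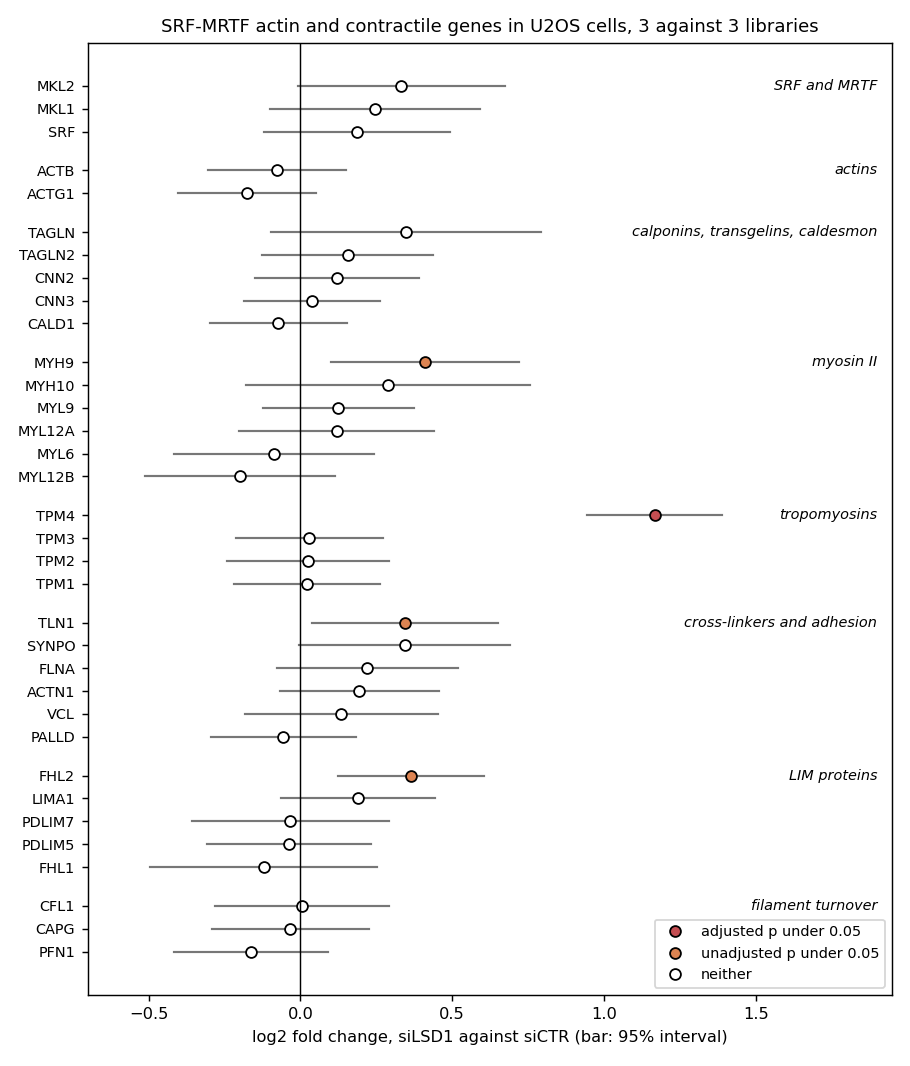
Log2 fold change of siLSD1 against siCTR for the 34 tested genes, grouped by role, with the 95% interval of the edgeR fit as a bar. TPM4 at 1.17 stands alone, whereas the 30 genes at or over an unadjusted p of 0.05 lie between -0.20 and 0.35.

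CArG boxes can be searched for in promoter sequences. RefSeq promoter windows of 300 bases (250 before and 50 after an annotated start, build GRCh38.p14) were searched for the exact CArG box, which reads the same on both strands. They were given for 36 of the 39 genes, and the genes without one were ACTB, MYL9 and TAGLN. A box was present in 9 of the 36 genes (25%), beside 1.6% of all 27305 genes with a window, and in 11 of 81 windows, beside 1.29% of all windows. The 9 genes were SRF, ACTG1, ACTG2, ACTN1, CNN2, FHL1, FHL2, FLNA and TPM4. The set was drawn up around the SRF-MRTF pathway, so these shares are a description and not a test. Genes also differ in their number of windows, with 1 for ACTG1 and 12 for FHL1. Runs of 60 bases around the box are shown for TPM4 and FHL2, which were higher after knockdown at an unadjusted p under 0.05, for SRF itself, and for ACTG1, FLNA and CNN2, which carry a box and did not pass the test. Each is written 5′ to 3′ on the strand of the gene, with the CArG box in capitals.
TPM4 (chr19:16067340-16067399, plus strand): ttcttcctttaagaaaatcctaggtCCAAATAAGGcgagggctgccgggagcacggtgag
FHL2 (chr2:105438580-105438639, minus strand): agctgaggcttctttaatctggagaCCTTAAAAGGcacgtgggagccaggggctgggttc
SRF (chr6:43171209-43171268, plus strand): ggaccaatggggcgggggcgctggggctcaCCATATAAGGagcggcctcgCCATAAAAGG
ACTG1 (chr17:81512859-81512918, minus strand): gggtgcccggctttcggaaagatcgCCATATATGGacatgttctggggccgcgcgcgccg
FLNA (chrX:154374694-154374753, minus strand): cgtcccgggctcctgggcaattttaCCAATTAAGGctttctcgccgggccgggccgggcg
CNN2 (chr19:1026494-1026553, plus strand): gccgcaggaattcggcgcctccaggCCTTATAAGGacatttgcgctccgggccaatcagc

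The box of TPM4 begins 173 bases before the start of 1 of its 3 RefSeq windows and lies in an intron of 1 of its 8 protein-coding transcripts in GENCODE v44, because another start lies upstream. The box of ACTG1 begins 94 bases before its start, in an intron of 4 of 12 protein-coding transcripts. Those of SRF, FLNA, CNN2 and the FHL2 run shown lie outside the protein-coding transcripts of the gene. SRF has 2 boxes in the same window, beginning 30 and 10 bases before the start. FHL2 has a box in 3 of its 4 windows. A box of FHL2 that is not shown (chr2:105399101-105399110) begins 59 bases before a start. It lies in an exon and within 5 of 11 protein-coding transcripts. Among tested genes, the median log2 fold change was 0.19 (range -0.17 to 1.17) for the 8 with a box and 0.029 (range -0.20 to 0.41) for the 23 with a window and no box. Of the 8 genes with a box, 2 were higher at an unadjusted p under 0.05, TPM4 and FHL2. Of the 23 without a box 2 were, MYH9 and TLN1, beside 7.48% of all tested genes. A match describes these letters in this window and not a bound site. The absence of a match leaves open an inexact box or a box outside the window, so genes without one are not thereby shown to be no SRF targets. Reads were counted per gene, so the start in use is not known from these data.

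Among the regulators, all 3 had positive estimates and none passed the test. SRF was measured at 73.5, 60.5 and 68.3 CPM in siCTR and at 90.2, 77.1 and 63.0 CPM in siLSD1. The groups overlapped, since siLSD1 replicate 3 lay below 2 of the siCTR libraries, and the log2 fold change was 0.19 (SE 0.14, 95% interval -0.12 to 0.49). It ranged from 0.054 without siLSD1 replicate 1 to 0.31 without siLSD1 replicate 3, where its unadjusted p was 0.0351 in edgeR, and it was 0.23 after the correction for GC content and length, with an unadjusted p of 0.014 and an adjusted p of 0.104 in edgeR. MKL1, whose product MRTF-A is a widely expressed coactivator, had 42.5, 29.0 and 36.2 CPM in siCTR and 46.7, 45.8 and 35.3 CPM in siLSD1. These ranges overlapped as well, with a log2 fold change of 0.25 (SE 0.16, 95% interval -0.099 to 0.59). The estimate of MKL1 was 0.12 without siCTR replicate 2, 0.38 without siCTR replicate 1 (unadjusted p = 0.0383 in edgeR) and 0.37 without siLSD1 replicate 3 (unadjusted p = 0.0356 in edgeR). MKL2, encoding the related MRTF-B, had 70.9, 46.7 and 71.8 CPM in siCTR and 73.1, 78.9 and 86.6 CPM in siLSD1. The MKL2 groups did not overlap, but the gap between them was small and siCTR replicate 2 was far below the rest. Its log2 fold change was 0.33 (SE 0.16, Benjamini-Hochberg adjusted p = 0.367 in edgeR) and 0.16 without siCTR replicate 2. An unadjusted p under 0.05 was reached in edgeR at 0.42 without siCTR replicate 1 (unadjusted p = 0.0268), at 0.43 without siCTR replicate 3 (unadjusted p = 0.0299) and at 0.39 when siLSD1 replicate 1 was omitted (unadjusted p = 0.047). It was also reached in DESeq2, in limma-voom and with the replicate block in edgeR (unadjusted p = 0.048, 0.0456 and 0.0045), with no filter, with the second counting and with the correction for GC content and length, and the adjusted p for MKL2 was at least 0.0553 in all the edgeR, DESeq2 and limma fits. The messenger RNA of a coactivator that is controlled by its location does not report its activity.

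Neither tested actin passed the test, and both had small negative estimates. ACTB, encoding cytoplasmic beta-actin, had 5078, 5754 and 5127 CPM in siCTR and 4807, 5097 and 5217 CPM in siLSD1, and the groups overlapped. Its log2 fold change was -0.078 (SE 0.11, 95% interval -0.31 to 0.15), and -0.015 without siCTR replicate 2. ACTG1, encoding cytoplasmic gamma-actin, had 3559, 4022 and 3604 CPM in siCTR and 3280, 3442 and 3189 CPM in siLSD1. All 3 siLSD1 libraries lay below the siCTR libraries, and the difference did not pass the test (log2 fold change -0.17, SE 0.11, 95% interval -0.40 to 0.053, Benjamini-Hochberg adjusted p = 0.486 in edgeR). It was -0.11 without siCTR replicate 2. Of the summed FPKM of both genes (reads scaled to gene length and library total, as deposited), ACTB made up 63.1% ± 0.0646 (SD, n = 3) in siCTR and 64.6% ± 1.38 in siLSD1. ACTB and ACTG1, like MYL12A and MYL12B below, are close copies with many pseudogenes or shared stretches, and how reads matching both were counted is not given in the sources used here, so the division between them is uncertain. The smooth muscle actins were nearly silent in these cells. ACTA2 had 3, 1 and 2 reads in siCTR and 0, 2 and 1 reads in siLSD1. ACTG2, which has 2 CArG boxes in its promoter window, had 3, 5 and 5 reads in siCTR and 3, 2 and 1 reads in siLSD1. Both were below the filter and no fold change is given for them.

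The genes of the smooth muscle calponin and transgelin group did not pass the test. CNN1, the smooth muscle calponin, had 0 to 3 reads per library and was below the filter. Its non-muscle relatives CNN2 and CNN3 were at 83.8 ± 7.15 and 70.1 ± 1.93 FPKM in siCTR (SD, n = 3), with log2 fold changes of 0.12 (0.0056 without siLSD1 replicate 1) and 0.038. TAGLN, an SRF target used as an early smooth muscle marker, was at 2.14 ± 0.296 FPKM in siCTR and 2.73 ± 0.434 FPKM in siLSD1. With a log2 fold change of 0.35 and a 95% interval of -0.095 to 0.79, its estimate was as high as that of TLN1, but only MYH10 had a wider interval. TAGLN2, the form found in many non-muscle cells, was far more abundant at 318 ± 24.9 FPKM in siCTR and 356 ± 56.5 FPKM in siLSD1. Its log2 fold change was 0.16, which became 0.061 without siLSD1 replicate 1. It rose to 0.27 when siLSD1 replicate 3 was omitted (unadjusted p = 0.0484 in edgeR). CALD1, encoding caldesmon, which binds actin and tropomyosin and restrains myosin, had a log2 fold change of -0.072.

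Myosin II, the motor of stress fibres, is built of heavy chains, essential light chains and regulatory light chains. The heavy chain gene MYH9 (GRCh38 chromosome 22, 36281280 to 36388010, minus strand) had 1062, 703 and 988 CPM in siCTR and 1243, 1159 and 1254 CPM in siLSD1. All 3 siLSD1 libraries were above the siCTR libraries, and siCTR replicate 2 was the lowest. The log2 fold change was 0.41 (SE 0.14, unadjusted p = 0.0134, adjusted p = 0.211 in edgeR's quasi-likelihood test), and it was 0.25 without siCTR replicate 2, still at an unadjusted p under 0.05. MYH10, the heavy chain of myosin IIB, was scarce at 0.709 ± 0.165 FPKM in siCTR, against 119 ± 25.8 FPKM for MYH9, with a log2 fold change of 0.29 (95% interval -0.18 to 0.76) that was 0.15 without siCTR replicate 2 or siLSD1 replicate 1. In U2OS cells MYH9 made up 97.1% ± 0.293 of the summed FPKM of the 3 non-muscle heavy chain genes in siCTR and 97.0% ± 0.170 in siLSD1. The regulatory light chain genes MYL9, MYL12A and MYL12B had log2 fold changes of 0.13, 0.12 and -0.20, and the essential light chain gene MYL6 had -0.087, none of which passed the test. Single libraries moved these estimates. Without siCTR replicate 2, MYL12B was at -0.0070, MYL12A at 0.25 and MYL6 at 0.11. Without siLSD1 replicate 1, MYL9 was at 0.030, and without siLSD1 replicate 3, MYL12A was at -0.021. Without siCTR replicate 1, MYL12B was at -0.32 (unadjusted p = 0.0461 in edgeR).

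**Figure D2:**
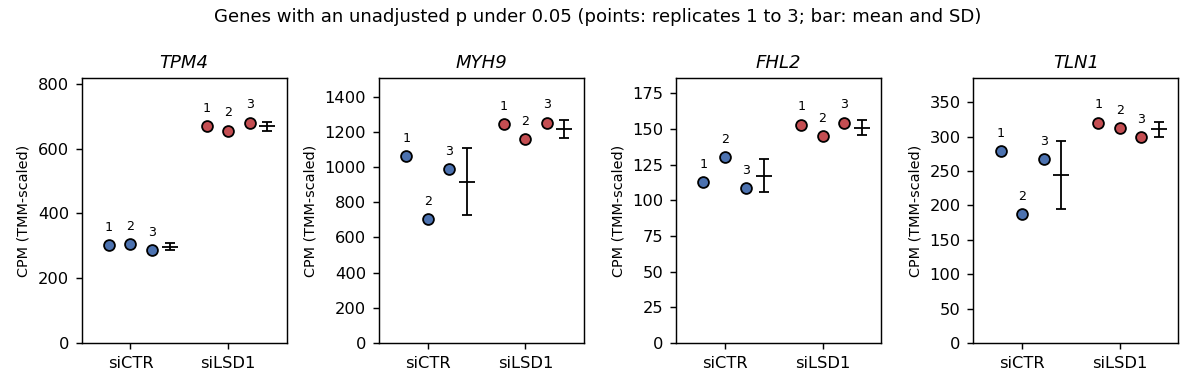
TMM-scaled CPM of TPM4, MYH9, FHL2 and TLN1 in each library (points numbered by replicate), with the mean and SD of each group of 3 as a bar. TPM4 is at 287 to 304 CPM in siCTR and 656 to 681 CPM in siLSD1, whereas the MYH9 and TLN1 controls are spread by a low siCTR replicate 2.

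Tropomyosins wind along actin filaments and determine which motors and regulators reach them. TPM4 (GRCh38 chromosome 19, 16067021 to 16103002, plus strand) had 303, 304 and 287 CPM in siCTR and 670, 656 and 681 CPM in siLSD1. The groups were far apart, and the spread within each was small. The log2 fold change was 1.17 (SE 0.10, 95% interval 0.94 to 1.39), which is a fold of 2.25 (95% interval 1.92 to 2.62), with a Benjamini-Hochberg adjusted p of 0.000137 in edgeR. By p-value TPM4 ranked 4 of 11844 tested genes. The log2 fold change stayed between 1.11 and 1.19 under all the alternative settings and omissions of a library, with adjusted p-values of at most 0.00145 over edgeR, DESeq2 and limma fits. The next gene downstream in the promoter table, RAB8A, encoding a small GTPase of vesicle transport, had a log2 fold change of -0.011 (SE 0.10).

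The other tropomyosin genes did not pass the test. TPM1 had 358, 423 and 375 CPM in siCTR and 367, 395 and 411 CPM in siLSD1, TPM2 had 170, 204 and 153 CPM in siCTR and 187, 167 and 181 CPM in siLSD1, and TPM3 had 570, 678 and 586 CPM in siCTR and 592, 619 and 661 CPM in siLSD1. The groups overlapped for each, and the log2 fold changes were 0.021, 0.024 and 0.029, with 95% intervals between -0.24 and 0.29. Per length, TPM4 rose from 87.2 ± 2.84 FPKM in siCTR to 196 ± 4.0 FPKM in siLSD1 (SD, n = 3). In siCTR it stood below TPM3 at 127 ± 10.6 and TPM2 at 107 ± 14.7 FPKM and above TPM1 at 46.1 ± 3.45 FPKM, and the ranges of TPM2 and TPM3 overlapped. In siLSD1 it was the most abundant. Its share of the summed FPKM was 25%, 22.0% and 24.4% under siCTR against 41.1%, 40.8% and 40.2% under siLSD1. The summed FPKM of the 4 genes was 367 ± 28.9 in siCTR and 482 ± 12.8 in siLSD1. Each tropomyosin gene gives several isoforms, which counts per gene do not separate.

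**Figure D3:**
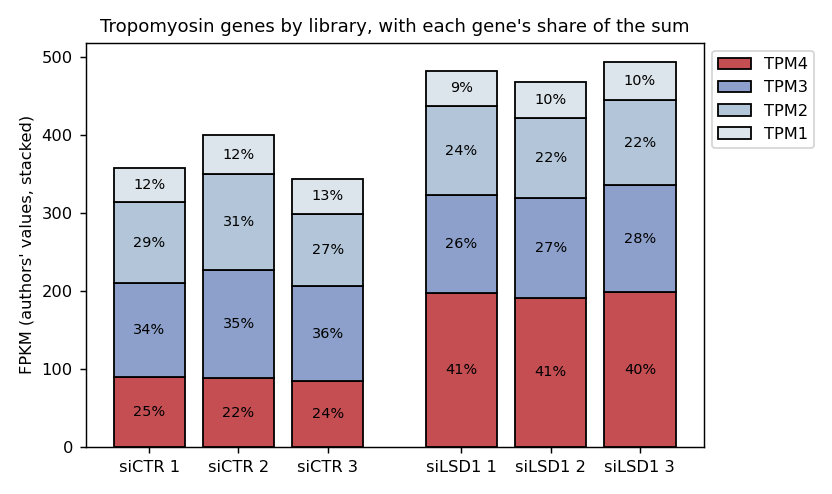
FPKM of TPM1, TPM2, TPM3 and TPM4 stacked for each of the 6 libraries, with the share of each gene in percent inside its segment. The TPM4 segment takes 22.0% to 25% of the stack in siCTR and 40.2% to 41.1% in siLSD1, and the other segments keep similar heights.

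Cross-linkers and adhesion proteins tie filaments into bundles and anchor them to integrins. TLN1 (GRCh38 chromosome 9, 35696948 to 35732195, minus strand), encoding talin, which binds and activates integrins, had 279, 187 and 267 CPM in siCTR and 320, 312 and 299 CPM in siLSD1. The siLSD1 libraries were all higher, and siCTR replicate 2 again lay far below the others. The log2 fold change of 0.35 (SE 0.14, unadjusted p = 0.0302, adjusted p = 0.290 in edgeR's quasi-likelihood test) became 0.19 without siCTR replicate 2, no longer at an unadjusted p under 0.05, and the same was true at 0.32 without siLSD1 replicate 1 and at 0.35 without siLSD1 replicate 2. SYNPO, encoding an actin-bundling protein, had a log2 fold change of 0.34 (unadjusted p = 0.0521, adjusted p = 0.362 in edgeR), which was 0.18 without siCTR replicate 2 and 0.48 without siCTR replicate 1 (unadjusted p of 0.182 and 0.0105 in edgeR). Its unadjusted p was 0.0431 in DESeq2 and 0.0479 in limma-voom. In edgeR it was 0.00396 with the replicate block and 0.0041 with the correction for GC content and length. With both, the adjusted p for SYNPO was 0.0281 in edgeR. FLNA, the abundant filamin that joins filaments into networks, was at 438 ± 88.2 FPKM in siCTR and 510 ± 36.0 FPKM in siLSD1, with a log2 fold change of 0.22. This was 0.076 without siCTR replicate 2 and 0.33 without siCTR replicate 1 (unadjusted p = 0.0326 in edgeR). ACTN1, the alpha-actinin of stress fibres, and VCL, encoding vinculin, had log2 fold changes of 0.19 and 0.14, which were 0.091 and -0.026 without siCTR replicate 2. PALLD, encoding the scaffold palladin, had -0.056, and 0.017 without siLSD1 replicate 1. FLNC, the muscle filamin, had 2 reads in all libraries together and was not tested. ZYX, encoding zyxin of focal adhesions, had 1 read and was not tested, and a loss of its reads in the counting cannot be told apart from a low level in these tables.

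Among the LIM domain proteins, FHL2 (GRCh38 chromosome 2, 105357712 to 105438513, minus strand), a cofactor of several transcription factors and an SRF target, had 113, 130 and 108 CPM in siCTR and 153, 145 and 155 CPM in siLSD1. The groups did not overlap, and siCTR replicate 2 was here the highest control. The log2 fold change was 0.36 (SE 0.11, unadjusted p = 0.00621, adjusted p = 0.154 in edgeR's quasi-likelihood test), and it was 0.45 without siCTR replicate 2. Its relative FHL1 was scarce at 2.3 ± 0.317 FPKM in siCTR, with a log2 fold change of -0.12 and a 95% interval of -0.50 to 0.25, and it was at -0.026 without siLSD1 replicate 3. A test of the difference between both genes was not made. LIMA1, encoding a stabilizer of filaments, had a log2 fold change of 0.19 (0.11 without siLSD1 replicate 3), and the Z-disc and stress fibre proteins PDLIM5 and PDLIM7 had -0.038 and -0.033.

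Of the genes of filament turnover, none passed the test. PFN1, encoding profilin, which loads monomers onto growing ends, had 828, 1053 and 848 CPM in siCTR and 828, 812 and 798 CPM in siLSD1. The siLSD1 libraries lay just below the siCTR libraries, with a log2 fold change of -0.16 (SE 0.12, 95% interval -0.42 to 0.092), and -0.042 without siCTR replicate 2. CFL1, encoding the severing protein cofilin, and CAPG, encoding a capping protein of the gelsolin family, had log2 fold changes of 0.0063 and -0.034. Leaving out 1 library moved the estimate by over 1.5 times for 31 of the 34 tested genes, all but TPM4, FHL2 and TAGLN, and leaving out siCTR replicate 2 did so for 23. Over the whole set, 30 genes had no unadjusted p under 0.05, and the 95% interval lay within a log2 fold change of 0.5 on either side of 0 for 23 of them.

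Levels in the set spanned a wide range. In siCTR, tested genes ran from 0.709 FPKM for MYH10 to 2667 ± 158 FPKM for ACTB, followed by ACTG1 at 1561 ± 88.6, PFN1 at 468 ± 58.2, FLNA at 438 ± 88.2, TAGLN2 at 318 ± 24.9 and CFL1 at 300 ± 37.5 FPKM. Of these neighbours, PFN1 and FLNA did not differ beyond their spread, nor did TAGLN2 and CFL1. TPM4 moved from rank 16 of the 39 genes in siCTR to rank 9 in siLSD1, next to MYL12A at 239 ± 39.9, MYL6 at 216 ± 31.8 and MYL12B at 192 ± 13.0 FPKM, and its mean was within the SD of MYL6 and MYL12B.

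The behaviour of siCTR replicate 2 followed gene length within the set. Its deviation from the mean of the other siCTR libraries, in log2 CPM, had a Spearman correlation of -0.70 with length over the 34 tested genes and -0.49 over all tested genes, whereas siCTR replicates 1 and 3 had 0.57 and 0.65 over the 34 genes. These values share the 3 libraries and describe them, without a test. The 10 longest genes (6693 to 10264 bases) had a median deviation of -0.52 in siCTR replicate 2, with 8 of 10 below 0, and the 10 shortest (1412 to 2343 bases) had 0.21, with 8 of 10 above 0. MKL2, MYH9, TLN1, SYNPO, VCL, FLNA and MYH10 were all among the low long genes, with deviations of -0.47 to -0.61. TPM4, of medium length, and FHL2 were not. The siLSD1 libraries had correlations of -0.17, 0.028 and 0.16 with length. The values of these genes without this library are given above.

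**Figure D4:**
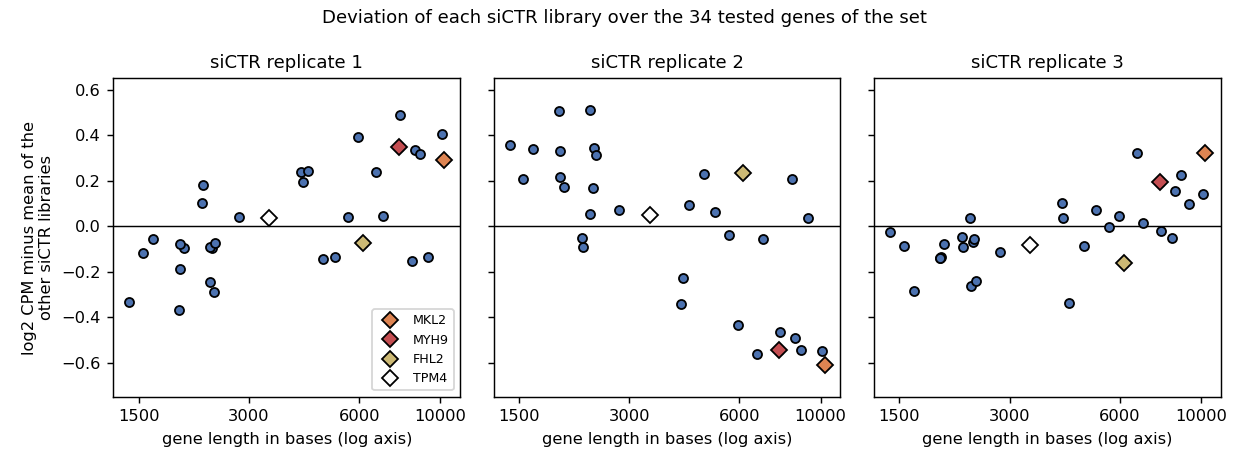
Deviation of each siCTR library from the mean of the other siCTR libraries (log2 CPM) against gene length in bases on a log axis, for the 34 tested genes, with MKL2, MYH9, FHL2 and TPM4 marked. In siCTR replicate 2 the long genes MKL2 and MYH9 lie at -0.61 and -0.54, and TPM4 lies near 0.

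A wider list of 126 further genes of the actin and SRF-MRTF pathway, written by role, had 123 genes in the table and 110 tested. Of these, 18 were higher and 9 lower at an unadjusted p under 0.05, which is 16.4% and 8.18%, beside 7.48% and 6.55% of all tested genes, with a median log2 fold change of 0.071, and 3 were higher and 0 lower at an adjusted p under 0.05. DESeq2 gave 18 higher and 8 lower and limma-voom gave 19 higher and 8 lower at an unadjusted p under 0.05. Of all tested genes, 7.04% were higher and 6.13% lower in DESeq2, and 7.69% and 6.6% in limma-voom. Without siLSD1 replicate 2 the counts were 10 and 3, when the shares of all tested genes also fell, to 5.07% and 3.79%. With the correction for GC content and length 28 genes were higher and 11 lower, beside 12.4% and 11.9% of all tested genes. The 3 genes were MYOCD, MICAL2 and SORBS2, of which the first pair belongs to the 8 tested partners of SRF.

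MYOCD encodes myocardin, the muscle-restricted relative of MKL1 and MKL2. It had 32, 23 and 38 reads under siCTR against 88, 68 and 68 reads under siLSD1. The groups were separate at a low level, 2.36 ± 0.525 CPM against 5.69 ± 0.784 CPM, and the log2 fold change was 1.26 (SE 0.24, adjusted p = 0.0228 in edgeR's quasi-likelihood test). Its adjusted p was 0.085 without siCTR replicate 2, 0.0508 without siCTR replicate 3, 0.0926 without siLSD1 replicate 1 and 0.0769 without siLSD1 replicate 2 in the same test. MICAL2, an oxidase that depolymerizes nuclear actin and thereby frees MRTF, had 266, 153 and 289 reads in siCTR and 515, 427 and 478 reads in siLSD1. Again the groups were separate, with a log2 fold change of 1.00 (SE 0.19, adjusted p = 0.0204 in edgeR), and 0.78 without siCTR replicate 2. The adjusted p rose above 0.05 only without siLSD1 replicate 1, at 0.0755 in edgeR. SORBS2, encoding an adaptor of stress fibres, had 82, 68 and 94 reads in siCTR and 138, 139 and 185 reads in siLSD1. Its log2 fold change was 0.92 (SE 0.18, adjusted p = 0.0283 in edgeR), with an adjusted p of 0.0505 to 0.108 in the same test when any of the 6 libraries was left out. Other muscle genes were at mixed levels, from 11 to 33 reads of DES and 0 to 5 reads of CKM per library to 266 to 389 reads of TTN, 326 to 468 reads of SMTN, 569 to 906 reads of TNNC1 and 2129 to 3001 reads of SYNM.

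**Figure D5:**
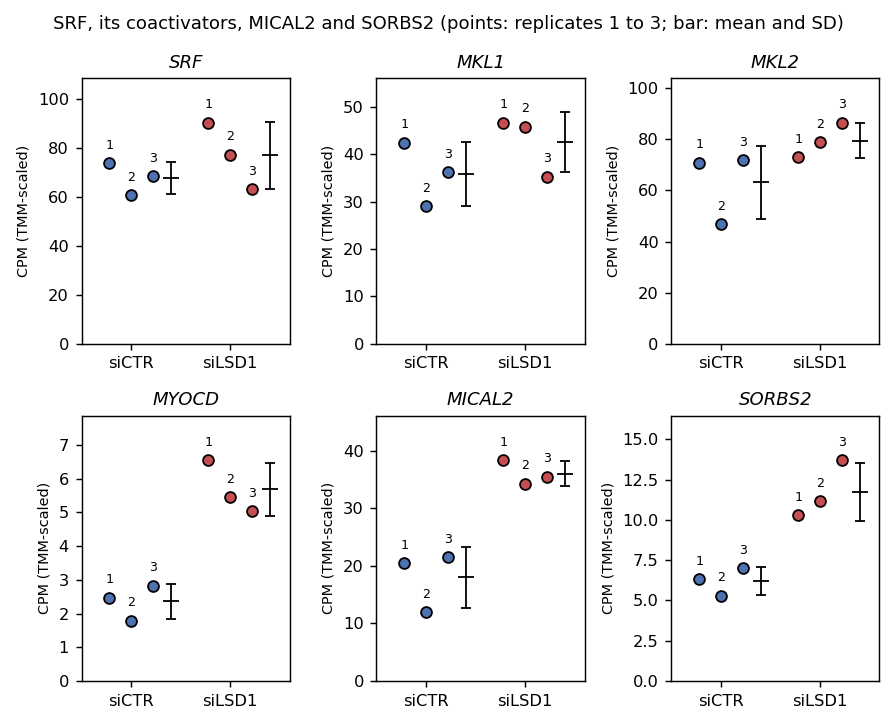
TMM-scaled CPM of SRF, MKL1, MKL2, MYOCD, MICAL2 and SORBS2 in each library (points numbered by replicate), with the mean and SD of each group of 3 as a bar. The groups overlap for SRF and MKL1 and are separate for MYOCD, MICAL2 and SORBS2.

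The genes with an unadjusted p under 0.05 in 4 further lists are given next, and none of them passed an adjusted p of 0.05 in edgeR's test except SORBS2. The shares of each list are to be read beside 7.48% higher and 6.55% lower over all tested genes. Among other genes of stress fibres and adhesion, 6 of 30 (20%) were higher (TES, LMO7, PARVA, SORBS2, NEXN and MYH14, with log2 fold changes of 0.41, 0.31, 0.34, 0.92, 0.35 and 0.53) and TGFB1I1 was lower at -0.34. Of 20 tested genes of other filament turnover, 5 (25%) were lower, namely DSTN, GSN, TWF2, CORO1B and TMOD1, with log2 fold changes of -0.28, -0.35, -0.53, -0.24 and -0.93, and SVIL, encoding supervillin, was higher at 0.39, while 14 passed in neither direction and 12 of the 20 had a negative estimate. TMOD1, encoding a cap of slow-growing filament ends, rested on 23 to 65 reads per library. Of 18 genes of the Arp2/3 complex and its activators, which make branched filaments, the subunit genes ARPC1A and ARPC5L were lower at -0.71 and -0.31 and the activator genes WASF2 and CTTN were higher at 0.30 and 0.25, which is 11.1% of the list in each direction. ARPC1A came closest to the adjusted threshold, at an adjusted p of 0.0539 in edgeR. Of 8 muscle-restricted genes, LMOD1 was higher at 1.02, from 5 to 23 reads per library, and SYNM was lower at -0.27, 1 gene in each direction. Of these 19 genes, 7 kept an unadjusted p under 0.05 in edgeR whichever library was left out, namely SVIL, TMOD1, ARPC1A, TES, PARVA, SORBS2 and MYH14, and the other 12 lost it in at least 1 omission. Leaving out siCTR replicate 2 moved the estimates of WASF2 to 0.15, of DSTN to -0.16 and of SVIL to 0.25, and leaving out siLSD1 replicate 3 moved that of TWF2 to -0.29. A test of the difference between lists was not made.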

How the data were processed

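RNA was sequenced from 6 libraries of U2OS cells, 3 per group, grouped by their labels. The submitters' processing notes name STAR, and the genome build, annotation and counting program behind the gene table are not given in the sources used here. The authors deposited read counts per gene, in whole reads without normalization, and FPKM values, which are reads scaled to gene length and library total. The authors' deposited normalized values, log2 fold changes and p-values were not used. The deposited tables of library pairs hold a second set of counts (median ratio 1.11), used as an alternative.

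A quasi-likelihood model without covariates was fitted to the counts with edgeR 4.0.16 (R 4.3.3) after filterByExpr at 10 reads and scaling by TMM, and p-values were adjusted over 11844 genes with the Benjamini-Hochberg method. CPM is TMM-scaled. The fitted biological coefficient of variation was 12.6%, and no libraries were alike within sampling noise (chi-square per degree of freedom 6.45 to 39.3). On simulated counts of 11772 genes for this comparison, 173 of 200 genes changed by 1 on the log2 scale were recovered, with 13 false calls among 186. The simulation held no library trend with length or GC content and no link between same-numbered libraries. Its change of 1 exceeded the estimate of every tested gene of the set but TPM4, so these rates do not describe smaller changes. Alternatives were DESeq2 1.42.0, limma-voom (limma 3.58.1), other scalings and filters, a replicate block, a correction for GC content and length from GENCODE v44, the second counting, and leaving out each library. Tables and figures were made in Python 3.11.15 with pandas 2.3.3 and matplotlib 3.10.9. Coordinates are from GENCODE v44 (GRCh38), in which 15352 of 15585 symbols were matched, 389 through an older symbol, and promoters from RefSeq (GRCh38.p14). No table of protein sequences was used here.

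The genes and lists were chosen with earlier results of these data known. Values in every library are given for the regulators, the actins and each gene of the set with an unadjusted p under 0.05, and for pathway genes with an adjusted p under 0.05. Of the pathway lists, those with an unadjusted p under 0.05 were named, except for 1 list, which enters the totals and is not reported here. Library values of PFN1 and the other tropomyosins were added after their values were seen.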

Additional observations from a re-analysis of the deposited data

How the results depend on the processing

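TPM4 kept its direction and its adjusted p under 0.05 in edgeR, DESeq2 and limma fits under every alternative tried. With the replicate block, 7 genes of the set were higher at an unadjusted p under 0.05, against 4 without it, and 4 passed an adjusted p of 0.05 (FHL2, MYH9, TLN1 and TPM4). With the GC and length correction these counts were 13 and 2, and with both together 15 and 5, with SYNPO passing as well. In these fits 10.3%, 12.4% and 14.1% of all genes were higher at an unadjusted p under 0.05, in the order block, correction and both. Genes in either direction numbered 2546, 2855 and 3306. At an adjusted p under 0.05, these fits called 897 (7.57%), 874 (7.43%) and 1296 (11%) of all genes, in the order block, correction and both. Of the pathway genes, 28 were higher and 11 lower with the correction, and 35 were higher and 12 lower with both. Beside these, 12.4% and 11.9% of all genes were higher and lower with the correction, and 14.1% and 14% with both. The cause of these increases was not tested. DESeq2, limma-voom and the absence of a filter on low counts each gave 6 higher genes, beside 7.04%, 7.69% and 6.53% of all genes tested in those fits. Same-numbered libraries had deviations correlated at 0.0744 to 0.328, and all 6 libraries correlated best with their own number. Whether the numbers pair the samples by design is not stated in the sources used here, and these correlations cannot decide it.

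Leaving out 1 library gave 3 to 9 higher and 0 to 1 lower genes of the set (MYL12B without siCTR replicate 1), 1 in each case at an adjusted p under 0.05, a median log2 fold change of 0.062 to 0.13, 5 to 11 genes with siLSD1 above siCTR, and 10 to 20 higher and 3 to 8 lower pathway genes. The largest counts of higher genes were 8 without siCTR replicate 1 and 9 without siLSD1 replicate 3, and the pathway counts were lowest, at 10 and 3, without siLSD1 replicate 2, when the share of all genes at an unadjusted p under 0.05 was also lowest, at 8.86%.

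The sign changed for 12 of 34 genes under some alternative, all with small estimates, and for 22 under none. With the GC and length correction it did so for TPM1 (-0.014), TPM3 (-0.052), PDLIM7 (0.14) and CAPG (0.087), and with the replicate block added for the same genes (-0.011, -0.0398, 0.14 and 0.087). With the second counting it did so for TPM2 (-0.000912) and CFL1 (-0.00484). When each library was left out, the log2 fold change ranged from -0.0054 to 0.065 for CNN3, -0.21 to 0.11 for MYL6, -0.021 to 0.25 for MYL12A, -0.031 to 0.096 for TPM1, -0.067 to 0.15 for TPM2, -0.021 to 0.11 for TPM3, -0.026 to 0.24 for VCL, -0.12 to 0.017 for PALLD, -0.15 to 0.047 for PDLIM5, -0.20 to 0.13 for PDLIM7, -0.10 to 0.0404 for CAPG and -0.091 to 0.12 for CFL1. With 3 libraries per group, the median half-width of the 95% interval was 0.28 (log2) over the tested genes of the set, and 5 genes of the set had too few reads to test.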

Other observations

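Some adhesion genes that cultured cells usually transcribe were nearly without reads here. ZYX, encoding zyxin of focal adhesions, had 1 read in 6 libraries, in siLSD1 replicate 2. ACTN4, encoding the alpha-actinin related to that of ACTN1, was not in the table of 6 libraries, and the second set of counts gave 2, 3 and 5 reads in siCTR and 3, 3 and 3 reads in siLSD1. The gene values given for the alpha-actinins and for focal adhesions therefore rest on ACTN1, TLN1, VCL and their partners. A loss of reads of ZYX and ACTN4 in the counting cannot be told apart from a low level with the tables alone.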
